A study of Sus scrofa with 8 samples.

Results

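The genes for LGR receptors, their R-spondin ligands and the membrane ubiquitin ligases RNF43 and ZNRF3 were followed in cells of condylar cartilage from pig jaw joints (the temporomandibular joint). The 9 genes were chosen by name for their place in the Wnt pathway and not by their values. In the authors' deposited table of 18898 genes, 7 of the 9 carry their name, RNF43 has a row without a name and was matched by its Ensembl identifier, and RSPO1 was not analysed here. The series holds 4 control libraries and 4 libraries labelled osteoarthritis, all labelled wild type. The protocol describes a perforation of the articular disc with a 5.0 mm biopsy punch and removal of the punched tissue, with the disc attachments left uncut. Whether control joints had a sham operation, how old and of what breed the pigs were and how long after surgery they were sampled is stated by none of the labels. The labels call the libraries biological replicates without naming the animals, so every p-value measures the spread between these samples. The title of the series names LGR5-expressing cells and a Wnt inhibitory niche in cartilage, which is the question that bears on these genes.

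R-spondins are secreted proteins that make cells more responsive to Wnt. In their absence RNF43 and ZNRF3, related E3 ubiquitin ligases of the cell surface, mark Frizzled receptors for removal, and an R-spondin bound to LGR4, LGR5 or LGR6 takes the ligase from the membrane so that Frizzled stays. RNF43, ZNRF3 and LGR5 are also known targets of beta-catenin signalling in several epithelia, where LGR5 marks stem cells of the intestine and hair follicle. In the skeleton LGR4 is known from mouse studies of bone formation and resorption, and RSPO2 and RSPO3 from limb and bone development.

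Of the 9 genes, 7 were abundant enough to test, LGR5 was too low, and none of the 7 changed at an adjusted p under 0.05. The quasi-likelihood test of edgeR was fitted over 16020 genes, of which 0.618% were called in either direction. At an unadjusted p under 0.05, which 15.2% of all tested genes reached in either direction and 7.52% in the upward direction, 2 of the 7 members were higher in osteoarthritis, RSPO4 and LGR4, and 0 were lower. DESeq2 called 1 member, RSPO4, higher, against 2.4% of all genes called higher by that tool, and limma-voom called 0. The family was therefore described library by library.

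The libraries held between 11354200 and 25412939 estimated counts. Genes other than protein-coding ones took 26.1% to 50.3% of the counts in controls and 9.51% to 12.3% in osteoarthritis, and 60.1% to 74.7% against 37.7% to 47.4% of the deposited TPM (a level per gene length, rescaled to a fixed total per library). On the TPM scale 70.7% of tested genes were higher in every osteoarthritis library than in every control, and the median log2 ratio of group means over all genes was 1.81. On the scale used for the tests, counts relative to a library size corrected by the TMM method (CPM), that median was 0.0049 and 5.69% of tested genes stood apart upward. By TPM 5 of the 8 members (LGR4, LGR5, LGR6, RSPO4 and ZNRF3) stood apart upward, by TPM rescaled over protein-coding genes 3 (LGR5, LGR6 and RSPO4, beside 30.3% of tested genes), and by CPM 1, LGR5. TPM is therefore used below mainly to set genes beside each other within a library, and CPM to compare groups. Values given for the 4 libraries of a group follow the replicate numbers from 1 to 4. Chondrocyte markers were present in all libraries, with a summed level of 6483 to 15696 CPM in controls and 19227 to 131609 CPM in osteoarthritis for 7 of 7 genes. Markers of the fibrous layer (COL1A1, COL1A2, COL3A1, DCN and LUM) summed to 130058 to 182132 CPM in controls and 115166 to 168164 CPM in osteoarthritis. They were above the chondrocyte sum in every library. Controls 1 and 3 were the closest pair of libraries (Pearson r = 0.97 across genes, which are not independent), with a chi-square of their counts of 28.5 per degree of freedom over 16402 genes, against 411.6 for controls 2 and 4 over 17563. That is more than counting error, so they were kept as separate libraries. It does not show whether controls 1 and 3 come from different animals.

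Among the receptors, LGR4 (ENSSSCG00000013335; chromosome 2, 32871837 to 32979150 in the RefSeq annotation of Sscrofa11.1) was detected in every library and had the highest mean of the family in controls. LGR4 had 335, 205, 259 and 925 counts in controls and 874, 398, 3258 and 1957 in osteoarthritis. Scaled, these were 25.6, 32.3, 22.8 and 45.3 CPM in controls and 53.7, 33.7, 96.3 and 52.3 CPM in osteoarthritis. The groups overlapped, since control 4 was above osteoarthritis 2, and osteoarthritis 3 was the highest library. Group means were 31.5 ± 10.05 and 59.0 ± 26.5 CPM (SD, n = 4 each), or 0.91 ± 0.34 as a log2 fold change (SE; edgeR unadjusted p = 0.027, adjusted p = 0.26). The effective length of LGR4, an estimate by Salmon that moves with the mix of transcripts, ran from 3037 to 7071 bases over the 8 libraries, and with that length as an offset, an alternative chosen after seeing the data, the log2 fold change was 0.36 (edgeR adjusted p = 0.68). Without osteoarthritis replicate 3 it was 0.55 (edgeR adjusted p = 0.49). The span of LGR4 overlaps 1 further RefSeq locus, LOC110259286.

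LGR6 (ENSSSCG00000044583; chromosome 10, 24358946 to 24454430) split the control group. It had 2, 145, 2 and 511 counts in controls and 704, 551, 1152 and 757 in osteoarthritis. On the CPM scale controls 1 and 3 were at 0.153 and 0.176, controls 2 and 4 at 22.8 and 25.1, and the osteoarthritis libraries at 43.3, 46.6, 34.1 and 20.2. Control 4 and control 2 thus lay above osteoarthritis 4, while controls 1 and 3 held almost no LGR6. Group means of 12.05 ± 13.8 and 36.05 ± 11.8 CPM (SD, n = 4 each) gave 1.58 ± 1.19 as log2 fold change (SE; edgeR adjusted p = 0.57). With a library left out it ran from 1.19, without control replicate 1 or 3, to 2.31, without control replicate 4. Limma-voom, which averages log values, put the change at 3.92 (adjusted p = 0.21), also without a call.

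LGR5 (ENSSSCG00000030511; chromosome 5, 35463257 to 35595234), the gene in the title of the series, was at the limit of detection. It had 0, 0, 0 and 2 counts in controls and 6, 4, 5 and 4 in osteoarthritis. A count of 0 in controls 1, 2 and 3 allows up to 3 counts, which is 0.229, 0.472 and 0.264 CPM and so overlaps the osteoarthritis levels of 0.369, 0.338, 0.148 and 0.107 CPM. Control 4, where LGR5 was seen, was at 0.0981 CPM. The measured groups did not overlap, by a margin of 0.0981 against 0.107 CPM, and means were 0.0245 ± 0.049 and 0.24 ± 0.132 CPM (SD, n = 4 each; exact two-sided permutation p = 0.0286, the smallest that 4 against 4 libraries can give). Pooled over each group, 2 against 19 counts correspond to a ratio of 4.90 with a 95% interval of 1.18 to 43.3, which covers counting error only. In a fit with no filter on low counts LGR5 was not called (log2 fold change 2.47 ± 1.04, edgeR unadjusted p = 0.041, adjusted p = 0.33). The span of LGR5 overlaps that of TSPAN8 in the annotation, and TSPAN8 had 1, 2, 0 and 0 counts in controls and 6, 0, 0 and 21 in osteoarthritis. The library kit keeps strand, but no source says whether the counting used it.

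**Figure D1:**
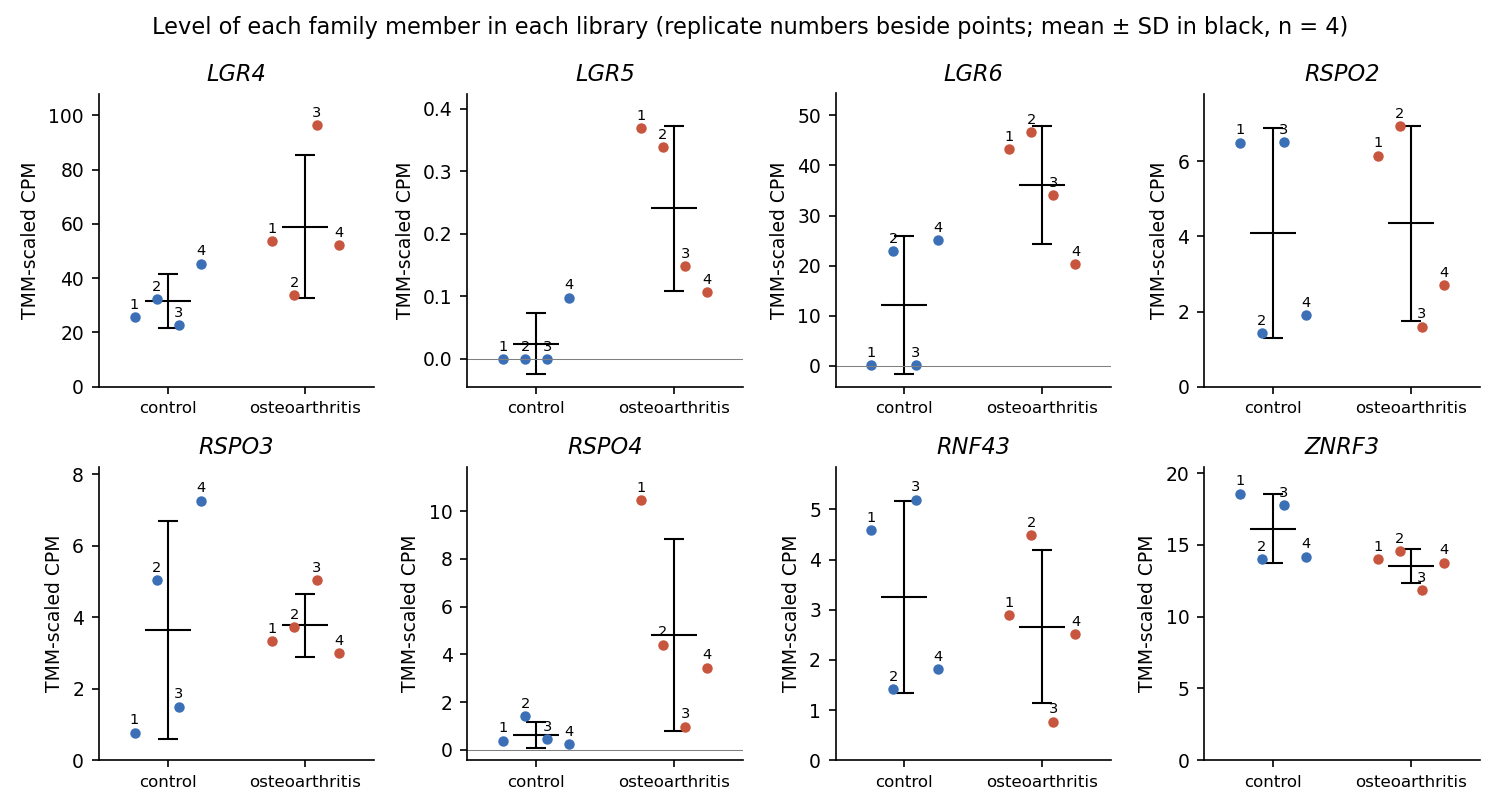
Level of each of the 8 measured members in each library, in TMM-scaled CPM on linear axes, with control points in blue, osteoarthritis points in red, replicate numbers beside the points and mean ± SD in black (n = 4 per group). LGR6 splits the controls between 0.153 and 25.1 CPM, RSPO2 and RNF43 split both groups, and ZNRF3 stays between 11.9 and 18.6 CPM.

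Because a ratio of genes within a library does not depend on the scaling between libraries, the receptors were also set beside each other as shares of their summed TPM. Such shares still depend on the effective lengths, which for LGR6 ran from 2695 to 4222 bases over the 8 libraries. In osteoarthritis 1 LGR4 had 874 counts at 6201 bases and LGR6 704 counts at 2765 bases, so the larger LGR6 share there rests on length. LGR4 made up 99.2%, 59.1%, 99.1% and 60.1% of the LGR receptor level in controls, and 35.5%, 34.5%, 62.5% and 55.6% in osteoarthritis. LGR6 supplied nearly all of the remainder, from 0.84% in control 1 to 65.2% in osteoarthritis 2. Osteoarthritis 3 and 4, at 37.3% and 44.2% LGR6, lay around controls 2 and 4, at 40.9% and 39.8%, so the groups overlapped in this share. LGR5 never exceeded 0.347% of the receptor level. In the osteoarthritis libraries LGR6 and LGR4 were the highest members of the family at 24.8 ± 6.06 and 23.1 ± 11.3 TPM (SD, n = 4), with LGR6 above LGR4 in 2 of 4 libraries.

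**Figure D2:**
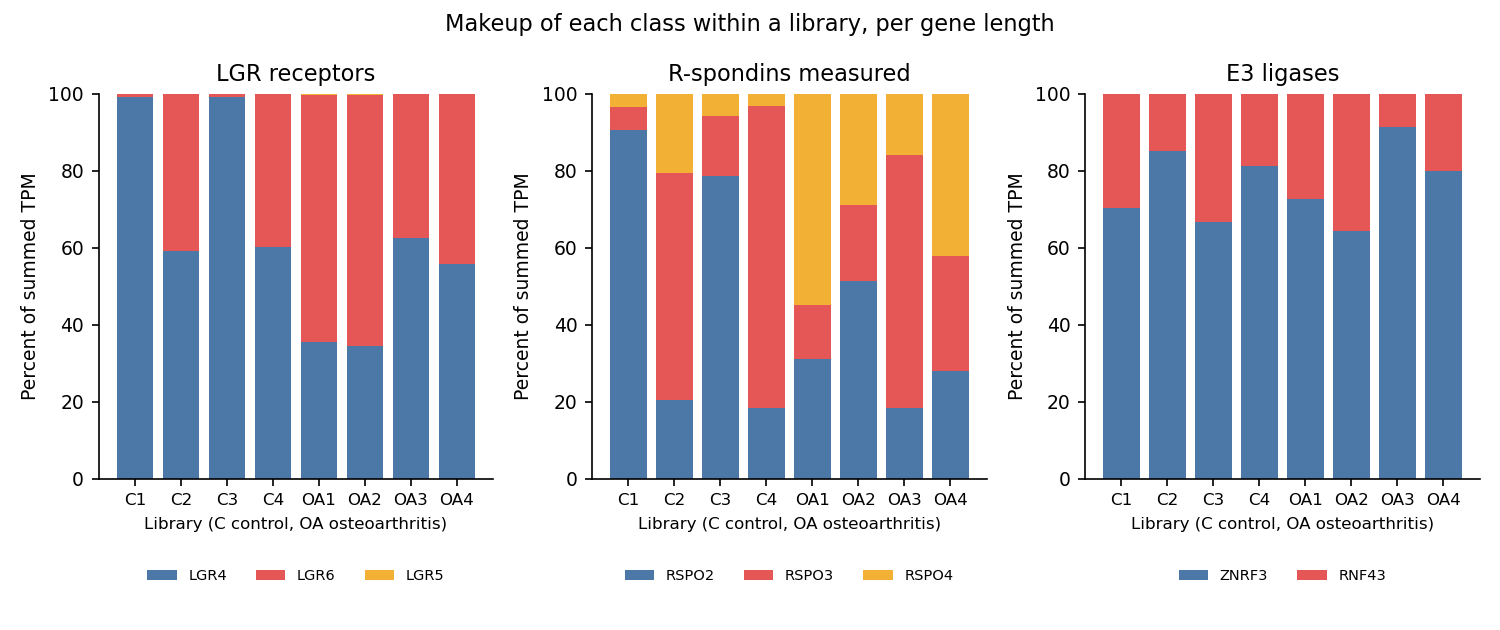
Share of the summed TPM of each class (LGR receptors, measured R-spondins, E3 ligases) taken by each gene within a library, in percent, with control libraries C1 to C4 on the left of each panel and osteoarthritis libraries OA1 to OA4 on the right. LGR4 takes 99.2% and 99.1% in C1 and C3, and RSPO4 takes 15.9% to 54.8% in the osteoarthritis libraries.

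RSPO4 had the largest fold change of the 7 tested members in the edgeR fit with the group as sole term, whereas limma-voom put LGR6 above it. RSPO4 (ENSSSCG00000007197; chromosome 17, 34268702 to 34310073), a ligand needed for nail growth in humans, had 5, 9, 5 and 5 counts in controls and 170, 52, 33 and 129 in osteoarthritis. With at most 9 counts in a control, RSPO4 was abundant enough to test through its osteoarthritis libraries alone. Its fold change is therefore set against a control level near the floor. Scaled, the controls were at 0.382, 1.42, 0.44 and 0.245 CPM and the osteoarthritis libraries at 10.45, 4.40, 0.976 and 3.45 CPM. All 4 osteoarthritis libraries were above controls 1, 3 and 4, and osteoarthritis 3 was below control 2. Control 2 rests on 9 counts and on the lowest scaling factor of all libraries, 0.424. Group means were 0.621 ± 0.537 and 4.82 ± 4.02 CPM (SD, n = 4 each), 3.11 ± 0.80 as log2 fold change (SE; edgeR unadjusted p = 0.0038, adjusted p = 0.13). DESeq2 called RSPO4 (log2 fold change 3.05, adjusted p = 0.0033), as did edgeR with library size as the sole scaling (3.79, adjusted p = 0.0049), where 1.16% of genes were called higher. Over all alternatives the adjusted p ran from 0.0033 to 0.34.

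RSPO2 (ENSSSCG00000006034; chromosome 4, 29415774 to 29577890) showed as much spread inside each group as between them. It had 85, 9, 74 and 39 counts in controls and 100, 82, 54 and 101 in osteoarthritis. The CPM were 6.50, 1.42, 6.51 and 1.91 in controls and 6.15, 6.94, 1.60 and 2.7 in osteoarthritis. Controls 1 and 3 and osteoarthritis 1 and 2 were high, the other 4 libraries were low, and the group means of 4.08 ± 2.80 and 4.35 ± 2.60 CPM (SD, n = 4 each) were near each other. The log2 fold change was 0.06 ± 0.62 (SE; edgeR adjusted p = 0.98).

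RSPO3 (ENSSSCG00000004218; chromosome 1, 35985985 to 36066432) ran the other way among the controls. Its counts were 10, 32, 17 and 148 in controls and 54, 44, 170 and 112 in osteoarthritis. On the CPM scale controls 1 and 3 were at 0.764 and 1.5, controls 2 and 4 at 5.04 and 7.26, and the osteoarthritis libraries at 3.32, 3.72, 5.03 and 2.99. The osteoarthritis libraries thus lay between the lower and the higher controls, with means of 3.64 ± 3.05 and 3.77 ± 0.892 CPM (SD, n = 4 each) and a fold change on the log2 scale of 0.05 ± 0.61 (SE; edgeR adjusted p = 0.98).

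The makeup of the ligands differed widely from library to library. RSPO2 led in controls 1 and 3, at 90.6% and 78.5% of the summed TPM of RSPO2, RSPO3 and RSPO4, and RSPO3 led in controls 2 and 4, at 58.9% and 78.3%. RSPO4 led in osteoarthritis 1 and 4, at 54.8% and 42.3%, RSPO2 in osteoarthritis 2, at 51.4%, and RSPO3 in osteoarthritis 3, at 65.8%. RSPO4 took 3.42%, 20.5%, 5.77% and 3.29% in controls and 54.8%, 28.9%, 15.9% and 42.3% in osteoarthritis, with overlap only between control 2 and osteoarthritis 3.

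Of the ligases, ZNRF3 (ENSSSCG00000009971; chromosome 14, 46092000 to 46241327) varied least of the 7 tested members, with an SD of 0.21 in log2 CPM over the 8 libraries against 0.67 to 3.19 for the other 6. It was at 18.6, 14.0, 17.8 and 14.2 CPM in controls and at 14.0, 14.6, 11.9 and 13.8 CPM in osteoarthritis. Controls 1 and 3 were above every osteoarthritis library, and controls 2 and 4 lay among them. Means were 16.1 ± 2.38 and 13.5 ± 1.18 CPM (SD, n = 4 each), which is -0.25 ± 0.18 on the log2 scale (SE; edgeR adjusted p = 0.53) and turned to 0.35 with library size as the sole scaling. On the TPM scale ZNRF3 had the opposite order, with every osteoarthritis library (5.30 to 9.44 TPM) above every control (0.675 to 3.02 TPM), as 70.7% of all tested genes did.

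RNF43 (ENSSSCG00000017640; chromosome 12, 34631574 to 34695021) had 60, 9, 59 and 37 counts in controls and 47, 53, 26 and 94 in osteoarthritis. It was at 4.59, 1.42, 5.19 and 1.81 CPM in controls and 2.89, 4.48, 0.769 and 2.51 CPM in osteoarthritis. As with RSPO2, controls 1 and 3 were the high controls and osteoarthritis 3 was the low osteoarthritis library. The means of 3.25 ± 1.91 and 2.66 ± 1.53 CPM (SD, n = 4 each) overlapped, at -0.32 ± 0.58 on the log2 scale (SE; edgeR adjusted p = 0.84). Per gene length ZNRF3 was above RNF43 in every library, at 66.7% to 85.1% of their summed TPM in controls and 64.4% to 91.3% in osteoarthritis.

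**Figure D3:**
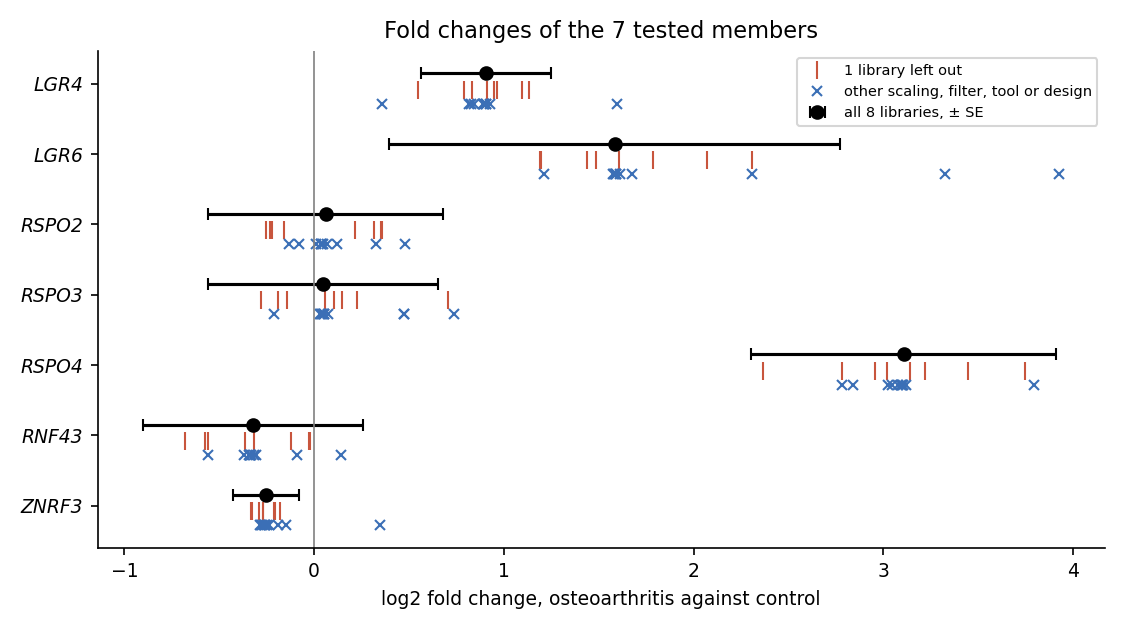
Log2 fold change of osteoarthritis against control for the 7 tested members, with the edgeR value ± SE in black, the 8 fits with a library left out as red ticks and the other scalings, filters, tools and designs as blue crosses. RSPO4 stays between 2.37 and 3.79 and RSPO2 and RSPO3 fall on both sides of 0.

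The order of the family by TPM was read within each group. In controls LGR4 (4.89 ± 3.93 TPM; SD, n = 4) was above ZNRF3 (2.30 ± 1.09 TPM) in 4 of 4 libraries. ZNRF3, LGR6, RSPO2, RSPO3 and RNF43 followed, each above the next in 2 of 4 libraries only, so that these neighbours did not separate. RNF43 was above RSPO4 (0.15 ± 0.0179 TPM) in 3 of 4 libraries, and RSPO4 above LGR5 in 4 of 4. In osteoarthritis LGR4 was above ZNRF3 (7.20 ± 2.21 TPM) in 4 of 4 libraries, ZNRF3 above RSPO4 (5.13 ± 3.66 TPM) in 3 of 4, and RSPO4, RSPO2 (4.48 ± 2.49 TPM) and RSPO3 (3.76 ± 1.75 TPM) did not separate. By group mean RSPO4 therefore moved from the seventh to the fourth place, and LGR6 from the third to the first, without a test of that change. The third place of LGR6 is that of a mean over split controls. In controls 1 and 3 LGR6 was at 0.0282 and 0.0278 TPM, below RSPO4 at 0.146 and 0.158 TPM. In controls 2 and 4 it was at 1.67 and 7.12 TPM, below LGR4 alone, as in osteoarthritis 3 and 4.

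Ratios across classes followed the same split of the controls. The LGR receptors summed to 0.783, 5.15, 0.777 and 5.10 TPM per TPM of ligase in controls and to 6.12, 5.60, 6.61 and 3.19 in osteoarthritis. Controls 2 and 4 thus fell inside the osteoarthritis range, and controls 1 and 3 below it. For 100 TPM of Frizzled receptors, FZD1 to FZD10 together, the ligases had 19.4, 11.2, 18.2 and 6.72 TPM in controls and 12.2, 10.51, 10.9 and 16.0 TPM in osteoarthritis, with overlap.

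Markers of other cell types moved with the same split. The summed CPM of 5 bone genes (BGLAP, IBSP, SP7, DMP1 and SOST) was 348.6, 1918, 373.5 and 1927 in controls and 2318 to 3359 in osteoarthritis. IBSP made up much of this sum outside controls 1 and 3, at 14.6, 1041, 14.7 and 778.1 CPM in controls and 1441 to 2816 CPM in osteoarthritis. Its log2 fold change of 2.06 was the largest of the 5 genes, whose median was 0.16. IBSP is also among the genes named below as closest to LGR6. That of 4 macrophage genes (PTPRC, CD68, CD163 and CSF1R) was 21.4, 575.8, 21.7 and 560.9 in controls and 195.5, 131.8, 444.7 and 190.6 in osteoarthritis. That of 5 endothelial genes (PECAM1, VWF, CDH5, KDR and TIE1) was 145.4, 311.8, 142.5 and 247.6 in controls and 229.0 to 324.8 in osteoarthritis. Controls 1 and 3, in which LGR6 and RSPO3 were low, were the lowest libraries for all 3 sums. Within osteoarthritis the macrophage sum was lowest in library 2, where LGR6 was highest, and highest in library 3, where RSPO3 was highest. In bulk RNA fewer cells of a type and less RNA per cell cannot be told apart, and the part of these cells in the LGR6 and RSPO3 levels was not tested. Epithelial markers, of which 4 of 5 had a row, summed to 86.3 to 355.6 CPM in controls and 1.23 to 2.04 CPM in osteoarthritis. The epithelial regulator TP63 was at 0 in osteoarthritis 1, 2 and 3. Mural cell markers summed to 194.2, 119.1, 194.2 and 97.5 CPM in controls, high in controls 1 and 3 as RSPO2 and RNF43 were. In osteoarthritis they summed to 60.1, 58.6, 58.8 and 78.7 CPM. The sums of osteoarthritis 2 and 3 were nearly equal, while these were the highest and the lowest library of that group for RSPO2 and RNF43. Chondrocyte markers were highest in osteoarthritis 1 and 2, at 131609 and 112744 CPM, and the part of any of these in the RSPO4 difference or in the RSPO2 and RNF43 levels was not tested.

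The genes with profiles closest to each member were found among 11998 genes by the mean absolute difference in centred log2 CPM over the 8 libraries. For LGR6 these were ACP5, the acid phosphatase of osteoclasts, at a distance of 0.32, GREB1 at 0.36 and IBSP, the bone sialoprotein, at 0.37. ACP5 was at 6.96, 767.6, 11.6 and 821.2 CPM in controls and at 448.0 to 1247 CPM in osteoarthritis. For RSPO3 the closest were ARHGAP9 at 0.11, CSF1, the growth factor of macrophages and osteoclasts, at 0.14, and SLA at 0.15. These genes were picked for their likeness to LGR6 or RSPO3, so their low levels in controls 1 and 3 follow from the choice.

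For RSPO4 the closest genes were KCNA1, a potassium channel, at a distance of 0.22, the Wnt ligand WNT11 at 0.46 and TMEM74B at 0.49. WNT11 was at 5.35, 6.61, 4.75 and 4.85 CPM in controls and 62.8, 44.5, 7.24 and 21.8 CPM in osteoarthritis, with osteoarthritis 1 highest and 3 lowest as for RSPO4. RSPO2 was closest to SORCS2 (0.18), PRDM6 (0.19) and PTK7 (0.21), the last a co-receptor of Wnt signalling, and RNF43 to MFRP (0.14), WNT10B (0.15) and FGFRL1 (0.16). PTK7 was at 231.4 and 227.4 CPM in controls 1 and 3 and at 67.4 and 82.4 CPM in controls 2 and 4. LGR4 was closest to ZSWIM6 (0.13), HEXA (0.15) and CALCRL (0.15), and ZNRF3 to PPP2R5D (0.054), ACTR1A (0.063) and PSMC5 (0.064). These distances rest on 8 libraries that share their scaling. A pattern shared between a member and its closest genes follows from how those genes were found.

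**Figure D4:**
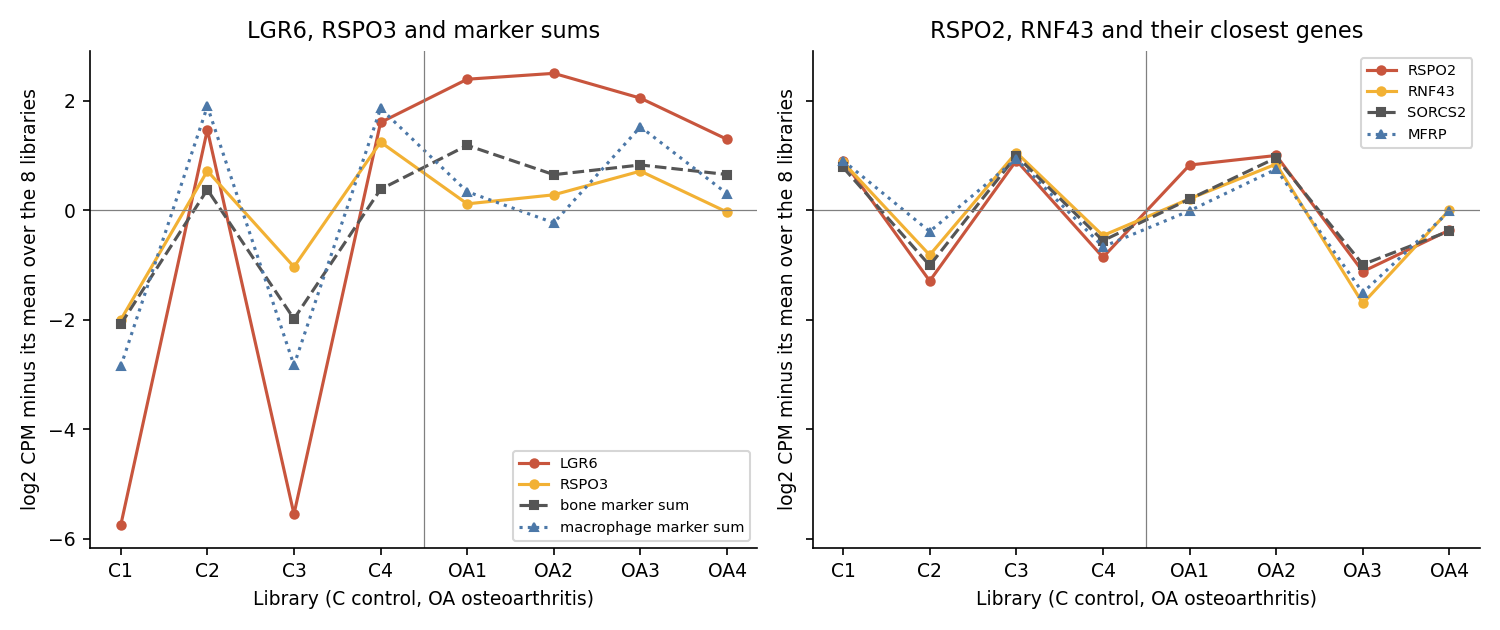
Log2 CPM of each gene or marker sum minus its mean over the 8 libraries, with control libraries C1 to C4 left and osteoarthritis libraries OA1 to OA4 right of the vertical line. LGR6 and RSPO3 are low in C1 and C3 with the bone and macrophage sums, and RSPO2 and RNF43 are high in C1, C3 and OA2 and low in OA3 with SORCS2 and MFRP.

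Other genes of the Wnt pathway were read from 7 lists. By edgeR 0 of their 68 tested genes passed over all genes, while an unadjusted p under 0.05 was reached by 10 in the upward and 7 in the downward direction, beside 7.52% and 7.65% of all tested genes. DESeq2 called 7 higher and 4 lower, beside 2.4% and 2.87% of all genes, and limma-voom called 0. Among the Frizzled receptors and co-receptors, 0 of 14 tested passed, with a median log2 fold change of 0.17 beside 0.0049 for all genes. FZD7 averaged 5.75 ± 0.244 CPM in controls against 15.03 ± 5.69 CPM in osteoarthritis (log2 fold change 1.38 ± 0.27, edgeR adjusted p = 0.067). Its groups did not overlap, as for 5.69% of all tested genes in the upward direction. FZD9 averaged 1.66 ± 0.776 against 9.69 ± 7.29 CPM with overlap (2.52 ± 0.72, edgeR adjusted p = 0.16). The co-receptors LRP5 and LRP6, which bind Wnt together with Frizzled, had log2 fold changes of -0.68 ± 0.32 and 0.25 ± 0.21 (edgeR adjusted p = 0.37 and 0.63), and their groups overlapped.

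Among Wnt ligands and secretion genes, 0 of 11 tested passed and the median was 0.42. WNT11 stood at 2.66 ± 0.58 (edgeR adjusted p = 0.086), WLS, the carrier of Wnt proteins, 1.05 ± 0.21 (edgeR adjusted p = 0.064), and WNT5A, a ligand best known for beta-catenin-independent signalling, 1.49 ± 0.41 (edgeR adjusted p = 0.15). Among secreted antagonists 0 of 10 tested passed, with a median of 0.64, and FRZB, a Frizzled-related decoy, was nearest to the threshold (2.72 ± 0.49, edgeR adjusted p = 0.0502). SFRP5 (1.32 ± 0.67) and DKK1 (1.29 ± 0.98) followed, both with overlap. The groups lay apart upward for WNT11, WLS and FRZB, as for 5.69% of all tested genes, and these were named for a small p. DKK1 split the controls, at 0.382, 11.8, 0.44 and 5.49 CPM.

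Among transducers 0 of 14 tested passed and the median was -0.02. DVL1 and DVL2, Dishevelled proteins that bring RNF43 and ZNRF3 to Frizzled, were at 85.9 ± 13.4 and 34.3 ± 15.8 CPM and at 20.4 ± 2.1 and 12.1 ± 1.78 CPM in controls and osteoarthritis. Neither gene overlapped between groups, but both were named for a small p. The share of all tested genes lying apart downward was not counted, so this lack of overlap is not read as a result. Their log2 fold changes were -1.33 ± 0.34 and -0.75 ± 0.18 (edgeR adjusted p = 0.12 and 0.10). AXIN1, a scaffold of the complex that degrades beta-catenin, was at -0.82 ± 0.24 (edgeR adjusted p = 0.17) and CTNNB1, beta-catenin itself, at 0.35 ± 0.22 (edgeR adjusted p = 0.49). The groups lay apart for AXIN1, also named for a small p, and overlapped for CTNNB1.

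Feedback targets, the class to which RNF43 and ZNRF3 belong in other tissues, had a median of -0.39 with 0 of 9 tested passing. AXIN2, a general target of the pathway, averaged 10.3 ± 2.96 CPM in controls and was at 13.3 ± 7.07 CPM after perforation (0.37 ± 0.43, edgeR adjusted p = 0.73). NKD2, CCND1 and TNFRSF19 were at -2.16 ± 0.74, -0.66 ± 0.27 and -1.18 ± 0.50 on the log2 scale (edgeR adjusted p from 0.23 to 0.31), each with overlap. The controls were split for NKD2, at 10.6, 59.2, 11.5 and 106.4 CPM, and for TNFRSF19, at 32.3, 9.92, 32.4 and 9.81 CPM. Syndecans and glypicans, which carry the heparan sulphate that R-spondins bind, had a median of 0.49 with 0 of 9 tested passing, led by SDC4 (1.00 ± 0.36, edgeR adjusted p = 0.24), GPC2 (-1.11 ± 0.41) and GPC3 (0.77 ± 0.39). Of the leucine-rich-repeat receptors related to the LGR genes, LHCGR alone was tested (-0.06 ± 0.74, edgeR adjusted p = 0.98).

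**Figure D5:**
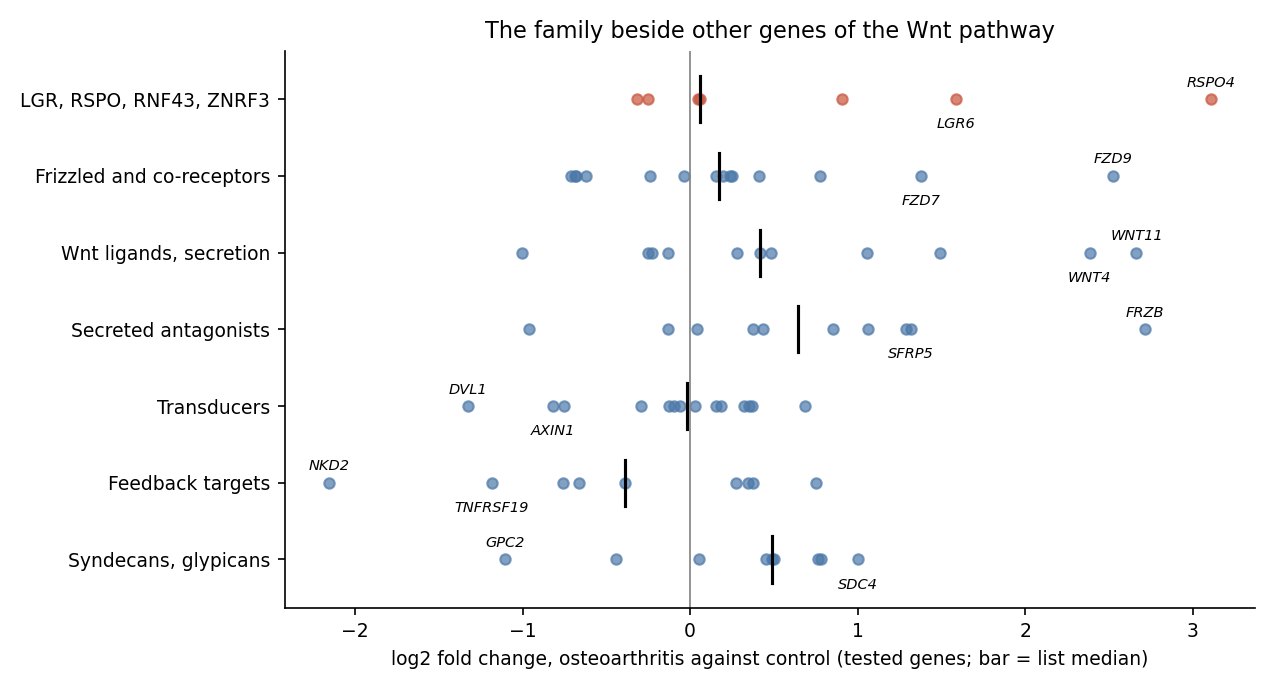
Log2 fold change of osteoarthritis against control for each tested gene of the family (red) and of 6 other Wnt pathway lists (blue), with the list median as a black bar and the 2 genes farthest from 0 named. RSPO4 at 3.11 lies beyond every gene of the other lists shown, and 0 of the genes shown passed an adjusted p under 0.05 by edgeR.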

How the data were processed

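The authors' deposited table gives estimated counts, TPM, log2 TPM and effective lengths per gene and library. The file headers credit the lengths to Salmon. The submitters' processing notes name Sscrofa11.1 as the build and, without roles, Salmon 1.1.0, STAR 2.7.9a and Trim Galore 0.6.7 among their programs. The 8 deposited log2 TPM columns were not used. Estimated counts are whole numbers in the deposited table and were rounded as a safeguard. Total counts ranged from 11354200 to 25412939.

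Low genes were removed by filterByExpr, libraries were scaled by TMM, and counts were tested with edgeR 4.0.16 (R 4.3.3; quasi-likelihood test, robust), group as sole term, with Benjamini-Hochberg adjustment over 16020 genes. The SE was derived from the fold change and the F statistic. The script was tested on simulated data. LGR5, below the filter, had an exact permutation test. DESeq2 1.42.0, limma-voom (limma 3.58.1), other scalings and filters, a replicate block and each library left out were alternatives; the length offset, protein-coding genes only, and controls 1 and 3 summed were added after seeing the data. Members, gene lists and the naming rule (3 smallest p per list, 5 fixed genes, 3 closest profiles among genes averaging at least 0 in log2 CPM) were chosen with earlier results of these data known. Symbols came with the file for 12365 genes, and 558 and 581 were added by Ensembl and Entrez identifier. Positions are those of the RefSeq annotation, not of the deposited table.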

Additional observations from a re-analysis of the deposited data

Results flagged for a closer look

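In the control group 2 members were marked for a library apart from the other 3, by Dixon's ratio of the gap to the range at the 95% level (16 groups of 4 were examined, and chance flags about 1 in 20). For LGR5 the ratio was 1.00: control 4 had 2 counts and the others 0, ties that fix the ratio at 1.00, and a count of 0 allows more than the 0.0981 CPM of control 4, so it is not shown to stand apart. For RSPO4 it was 0.834: control 2 was at 1.42 CPM against 0.245 to 0.44 CPM in the other controls, on 9 counts and a scaling factor of 0.424. On the TPM scale the RSPO4 controls ran from 0.128 to 0.17, below the lowest osteoarthritis library at 1.54, as for 70.7% of tested genes on that scale, whereas in CPM control 2 was above osteoarthritis 3.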

How the results depend on the processing

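LGR4, LGR6 and RSPO4 were above 0 in every alternative run. Of the 7 tested members, 0 passed in all alternatives except DESeq2 and library size alone, each with 1 (RSPO4). RSPO2 turned to -0.0802 by limma-voom, to -0.13 with the length offset, and to -0.23, -0.22, -0.16 and -0.26 without control replicate 2, control replicate 4, osteoarthritis replicate 1 and osteoarthritis replicate 2. With a library left out it ran from -0.26 to 0.36. RSPO3 turned to -0.28, -0.19 and -0.14 without control replicate 1, control replicate 3 and osteoarthritis replicate 3, and to -0.21 with controls 1 and 3 summed, with a range from -0.28 to 0.70 with a library left out. RNF43 and ZNRF3 turned to 0.14 and 0.35 with library size alone, a scaling that moves the median of all genes to 0.65. The cause was not tested. Called genes overall numbered 99, and 214 with library size alone, 844 by DESeq2, 31 with controls 1 and 3 summed and 14 (without osteoarthritis replicate 4) to 152 (without control replicate 4) with a library left out. The LGR5 difference of 0.216 CPM ran from 0.173 to 0.261 with a library left out, where the smallest exact p is 0.057. With the replicate number as a block 1 gene was called and 0 members, and LGR6 (3.33) stood above RSPO4 (2.84). Same-numbered libraries had correlations of deviations of -0.02, -0.08, -0.34 and -0.18, against -0.31 to 0.41 for the others. No pairing by number was seen, but so few values cannot show that there is none. Depth limits LGR5, with at most 6 counts in a library.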
